A study of Bos taurus with 12 samples.

Results

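The mitochondrial carrier family, SLC25, was followed in cultured precursor adipocytes of cattle (Bos taurus), cells that can go on to form fat cells. Its members were taken as every row of the count table whose name is SLC25A followed by a number, which gave 45 of 29240 genes. Polyadenylated RNA was sequenced from 12 libraries in 4 groups of 3, all collected 48 h after transfection. The si group received an interfering RNA whose target the labels do not name, and si_NC its negative control. The OE group received a pcDNA3.1 plasmid carrying the coding sequence of HGFAC, the secreted protease that activates hepatocyte growth factor, and OE_NC received the pcDNA3.1 negative control. The labels give no animal, sex or age and do not state whether replicates came from different cultures, so the p-values reflect only how far these libraries spread, which may be technical.

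SLC25 proteins sit in the inner mitochondrial membrane, apart from a few members of the outer membrane or of peroxisomes, and each carries a small set of solutes across it. The ADP/ATP carriers exchange nucleotides and the phosphate carrier brings in phosphate for ATP synthesis. Other members carry citrate, malate, 2-oxoglutarate, aspartate and glutamate between mitochondria and cytosol, and so link the citric acid cycle to fatty acid synthesis and to the transfer of reducing equivalents. Still others carry amino acids, acylcarnitines, iron, glutathione and coenzymes. In fat tissue, citrate export feeds lipid synthesis, and the related uncoupling protein UCP1 makes heat in brown fat cells.

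Levels are given per length as RPKM (reads scaled to exon length and library total), and differences between libraries as CPM (counts scaled to library size, not to length). The libraries held 28.9 to 42.7 M counts in genes, and 3 counts, the limit that a count of 0 allows, stood at 0.0703 to 0.104 CPM, for counting error only. The stromal markers VIM, COL1A2 and PDGFRA averaged 3212, 1557 and 33.4 RPKM, while DLK1 and CD34, which also mark precursor adipocytes, averaged 0.0442 and 0.0117 RPKM. Of the markers of mature fat cells FABP4 averaged 11.3 RPKM, LPL 4.45 RPKM and ADIPOQ 0.0198 RPKM. The muscle marker DES averaged 254 RPKM, with MYOD1 at 0.0231 RPKM. CD68, of macrophages, averaged 3.32 RPKM and PTPRC, of all leukocytes, 0.0055 RPKM, while KRT19 of epithelium averaged 1.37 RPKM and VWF, the highest of 4 endothelial markers, 0.165 RPKM. HGFAC stood at 189.5, 155.6 and 137.7 CPM in OE and at 0.392 ± 0.127 CPM (SD, n = 3) in OE_NC. It did not differ between si and si_NC past the threshold (0.657 ± 0.165 against 0.830 ± 0.0988 CPM, SD, n = 3; log2 change -0.35 ± 0.27, SE; edgeR adjusted p = 0.512). Leaving out si replicate 3 or si_NC replicate 2 raised the count of all genes called in si from 414 to 685 or 1083, so member counts are also given without both. The count also rose to 685 without OE_NC replicate 1, a library outside this comparison. Leaving out another si or si_NC library lowered it, to 56 without si_NC replicate 1, 69 without si replicate 2 and 73 without si replicate 1 and less far without si_NC replicate 3, and a fit of these 2 groups alone gave 8.

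The phosphate carrier and the ADP/ATP carriers made up most of the family's transcripts. SLC25A6, an ADP/ATP carrier, averaged 130.1 RPKM over the 12 libraries and SLC25A3, the phosphate carrier, 86.7 RPKM. The next was SLC25A4, the ADP/ATP carrier typical of heart and muscle, at 24.8 RPKM. Its relative SLC25A5 stood at 17.1 RPKM, and SLC25A31, the ADP/ATP carrier known from testis, gave 1 count in all libraries together. SLC25A6 and SLC25A3 together held between 53.0 and 57.8 percent of the family's summed RPKM in a library, and the 8 most abundant members between 79.3 and 82.6 percent. The order SLC25A6, SLC25A3, SLC25A4, SLC25A5 held in each of the 12 libraries. After that neighbours ran closer: SLC25A5 stood above SLC25A11 in 6 of 12 libraries and SLC25A12 above SLC25A1 in 8 of 12.

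The dicarboxylate, tricarboxylate and aspartate/glutamate carriers formed the next tier. SLC25A11, the 2-oxoglutarate/malate carrier, averaged 16.3 RPKM, SLC25A12, an aspartate/glutamate carrier, 13.5 RPKM and SLC25A1, the citrate carrier, 12.9 RPKM. SLC25A13, the other aspartate/glutamate carrier, stood at 2.76 RPKM. SLC25A22, a mitochondrial glutamate carrier, averaged 1.45 RPKM and was the median member. SLC25A21, the 2-oxoadipate carrier, stood at 1.21 RPKM and SLC25A10, the dicarboxylate carrier, at 0.581 RPKM. Among the carriers of other amino acids SLC25A15, the ornithine carrier of the urea cycle, was far above the rest of its group at 14.2 RPKM, and SLC25A44, which carries branched-chain amino acids, and SLC25A38, which carries glycine, averaged 5.78 and 3.78 RPKM. SLC25A29, a carrier of basic amino acids, stood at 0.512 RPKM, and SLC25A2, a second ornithine carrier, gave 30 counts in all.

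Carriers of iron, glutathione, acylcarnitines and coenzymes lay lower. SLC25A39, which brings glutathione into mitochondria, averaged 8.47 RPKM and its relative SLC25A40 0.567 RPKM. The iron carriers SLC25A37 and SLC25A28, called mitoferrins, stood at 4.32 and 3.16 RPKM, and SLC25A20, the carnitine/acylcarnitine carrier of fatty acid oxidation, at 3.06 RPKM. Of the carriers of nucleotides and coenzymes SLC25A36, for pyrimidine nucleotides, was highest at 6.58 RPKM, followed by the peroxisomal carrier SLC25A17 at 4.38 RPKM and the folate and flavin carrier SLC25A32 at 4.22 RPKM. SLC25A26, for S-adenosylmethionine, averaged 1.35 RPKM, SLC25A51, for NAD, 1.25 RPKM, and the coenzyme A carriers SLC25A16 and SLC25A42 0.634 and 0.0624 RPKM. In the branch closest to the uncoupling proteins SLC25A30 averaged 6.91 RPKM, SLC25A14 1.08 RPKM and SLC25A27 0.477 RPKM. SLC25A46, an outer membrane protein of mitochondrial fission and fusion, stood at 4.53 RPKM, whereas the less well characterised SLC25A43, SLC25A35, SLC25A53 and SLC25A34 ranged from 0.111 to 0.790 RPKM.

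In all, 8 members averaged over 10 RPKM, 20 between 1 and 10 RPKM and 17 at most 1 RPKM. A filter on low counts (at least 10 counts in enough libraries) kept 40 members among 16300 genes, and the median kept member, at 2.58 RPKM, lay close to the median kept gene at 2.94 RPKM. The 5 members that were not kept were SLC25A31, SLC25A2, SLC25A45, SLC25A47 and SLC25A48, with 1, 30, 19, 10 and 32 counts over the 12 libraries. Family genes under other symbols were also measured: MTCH1 and MTCH2, outer membrane proteins of the family, averaged 19.6 and 12.7 RPKM, UCP2 0.772 RPKM, UCP1 0.00975 RPKM and UCP3 0.0060 RPKM.

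**Figure D1:**
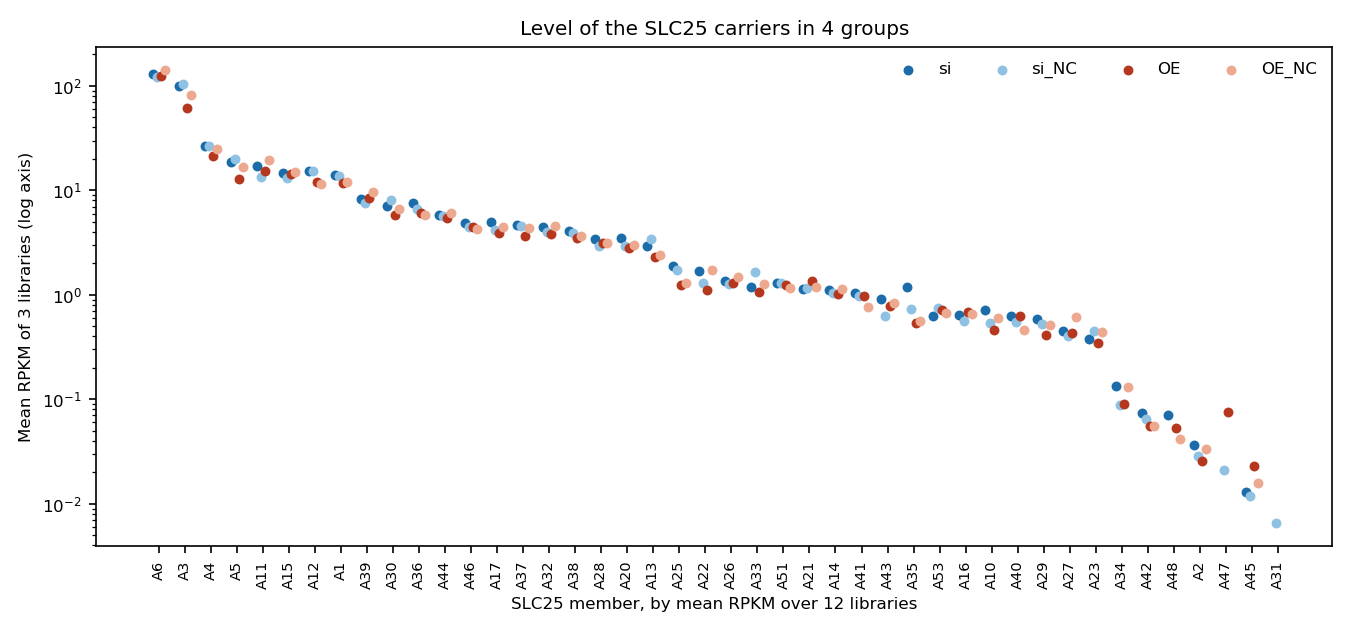
Mean RPKM (log axis) of 44 of the 45 SLC25 members in si, si_NC, OE and OE_NC, each point the mean of 3 libraries, ordered by the mean over 12 libraries. SLC25A6 at 130.1 RPKM and SLC25A3 at 86.7 RPKM stand above SLC25A4 at 24.8 RPKM, and groups with 0 counts for a member (among SLC25A48, SLC25A47 and SLC25A31) have no point on the log axis.

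Within sets of close relatives 1 gene usually supplied most of the RPKM, and it was the same gene in each of the 4 groups. SLC25A6 held 71.2 to 80.1 percent of the summed RPKM of SLC25A4, SLC25A5 and SLC25A6 over the 12 libraries. These 3 genes are close copies, and how reads that fit several genes were counted is not given in the sources used here, so their split is uncertain. SLC25A12 held 79.8 to 84.9 percent against SLC25A13, SLC25A39 91.6 to 95.9 percent against SLC25A40, and SLC25A36 77.3 to 89.2 percent against SLC25A33, another pyrimidine nucleotide carrier. The mitoferrins were closer to balance, with SLC25A37 at 50.6 to 63.1 percent. Among the ATP-Mg/phosphate carriers read here SLC25A25 held 46.1 to 64.9 percent, SLC25A41 23.2 to 40.6 percent and SLC25A23 10.6 to 20.4 percent. SLC25A24, of the same set, was not analysed, so these are shares of an incomplete set. Of the exon bases of SLC25A41, 1277 of 2059 also lie in an exon of the opposite strand (LOC112447359), and the counting strand is not given, so its level is uncertain.

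Shares by group are given as means with SD over 3 libraries and were not tested. SLC25A33 held 13.4 ± 2.20 percent of the pyrimidine carrier RPKM in si and 19.9 ± 2.45 percent in si_NC, and 14.7 ± 0.613 percent in OE against 17.9 ± 0.0701 percent in OE_NC. SLC25A6 held 74.3 ± 2.02 percent of the ADP/ATP carrier RPKM in si, 72.5 ± 1.10 percent in si_NC, 78.4 ± 1.57 percent in OE and 77.6 ± 1.09 percent in OE_NC. SLC25A41 held 38.4 ± 2.48 percent of the summed RPKM of SLC25A23, SLC25A25 and SLC25A41 in OE against 30.4 ± 3.44 percent in OE_NC. The RPKM ratio of SLC25A6 to SLC25A3 was 1.33 ± 0.171 in si, 1.19 ± 0.0946 in si_NC, 2.04 ± 0.348 in OE and 1.73 ± 0.0718 in OE_NC.

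**Figure D2:**
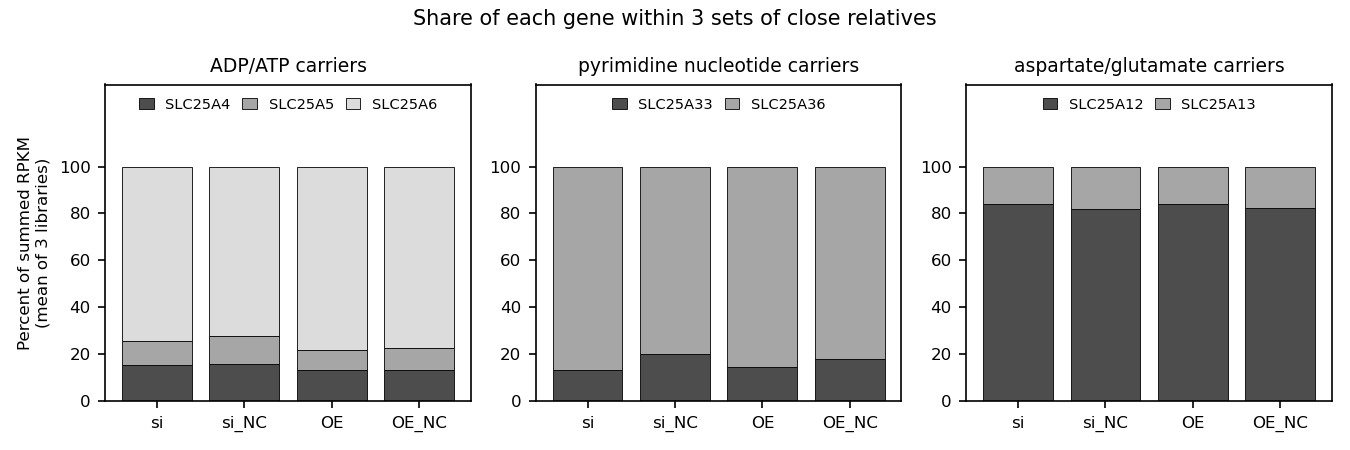
Percent of summed RPKM (mean of 3 libraries) of each gene within the ADP/ATP, the pyrimidine nucleotide and the aspartate/glutamate carriers in si, si_NC, OE and OE_NC. The dominant gene is the same in the 4 groups, and the share of SLC25A33 is 13.4 percent in si and 19.9 percent in si_NC.

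With HGFAC overexpressed, 2 of 40 tested members fell, SLC25A22 and SLC25A3, and 0 rose. SLC25A22, which carries glutamate into mitochondria, was 0.664 times its level in OE_NC, and SLC25A3, which supplies phosphate for ATP synthesis, 0.776 times. Over all genes tested, 4.47 percent were called in this comparison, close to the 5.0 percent of members. These 728 genes became 19, 35, 45 or 32 without OE replicate 2, OE replicate 3, OE_NC replicate 1 or OE_NC replicate 2, and 1620 in a fit of OE and OE_NC alone. At an unadjusted p under 0.05 there were 1 member higher (SLC25A40) and 7 lower. No share of all genes at that cut is given beside this count, so it does not set the family apart from other genes. DESeq2 and limma each also called 0 higher and 2 lower. The log2 change was negative in 28 of 40 members with a median of -0.11, beside -0.0046 over all genes tested, of which 8263 of 16300 were negative. After a correction for how each library's counts trended with exon length (the gene-length offset) it was negative in 21, with a median of -0.012, beside 0.022 over all genes. Without si replicate 3 and si_NC replicate 2, libraries that enter this fit only through the shared spread, 5 members were called, SLC25A40 higher and 4 lower, among them SLC25A3, SLC25A11 and SLC25A22, and calls over all genes rose as well, from 728 to 2333. In bulk RNA, fewer cells of a type and less RNA per cell cannot be told apart.

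SLC25A22 (chromosome 29, 50567850 to 50574852, plus strand, 3262 exon bases, as the count table places it on a build not given in the sources used here) stood at 3.46, 3.79 and 3.69 CPM in OE. In OE_NC it stood at 5.48, 5.63 and 5.37 CPM, so each OE library lay below each control. The log2 change was -0.59 ± 0.12 (SE; 95% interval -0.84 to -0.34; edgeR adjusted p = 0.0189). It rests on 120 to 241 counts per library. The call was lost in 5 of 12 refits that left out 1 library (OE replicate 1, 2 or 3, or OE_NC replicate 1 or 2), with log2 changes from -0.63 to -0.57 over the 12.

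SLC25A3 (chromosome 5, 62746005 to 62752288, plus strand, 1543 exon bases) stood at 111.2, 90.6 and 87.5 CPM in OE and at 140.3, 120.6 and 111.7 CPM in OE_NC. The groups did not overlap, but the highest OE library came within 1 CPM of the lowest control. The log2 change was -0.37 ± 0.10 (SE; edgeR adjusted p = 0.0457). The call was lost with the gene-length offset, where the change was -0.22, and in 8 of 12 refits without 1 library, where it ran from -0.50 to -0.28. It was kept in the refits without si replicate 3, si_NC replicate 2, OE replicate 1 or OE_NC replicate 3.

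The other abundant members did not pass the test in OE. SLC25A6 stood at 159.9, 170.0 and 176.8 CPM in OE and 211.3, 175.7 and 176.5 CPM in OE_NC, which overlap (log2 change -0.15 ± 0.10, SE; edgeR adjusted p = 0.370). SLC25A4 stood at 25.4, 28.3 and 23.1 against 33.3, 26.0 and 26.9 CPM (adjusted p = 0.379) and SLC25A5 at 13.96, 15.94 and 15.21 against 23.44, 17.53 and 15.18 CPM (adjusted p = 0.188), and both pairs of groups overlapped. SLC25A15, the ornithine carrier, was nearly equal, at 51.5, 49.6 and 51.9 CPM in OE and 53.2, 50.7 and 49.8 CPM in OE_NC (95% interval of the log2 change -0.19 to 0.18). The citrate carrier SLC25A1 stood at 18.5, 19.8 and 18.1 CPM against 17.7, 17.8 and 19.8 CPM (95% interval -0.21 to 0.27). SLC25A12 had a positive sign, at 39.7, 36.8 and 40.2 CPM in OE and 34.8, 35.4 and 36.0 CPM in OE_NC, without overlap (log2 change 0.13 ± 0.08, SE; edgeR adjusted p = 0.344).

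In OE the 3 libraries lay wholly above or below OE_NC for 14 of 40 members, 4 above and 10 below, and such a separation was seen in 33.3 percent of all genes tested, a like share. The 4 above were SLC25A12, SLC25A16, SLC25A40 and SLC25A41. Summed over the family, CPM was 668.3, 665.5 and 662.9 in OE and 776.0, 708.6 and 701.4 in OE_NC, with each OE library lower, a description with no test. Much of this sum was SLC25A3 and SLC25A6, at means of 96.4 and 168.9 CPM in OE and 124.2 and 187.8 CPM in OE_NC. The groups overlapped for SLC25A6, so the sum alone does not show a fall across the family. The family took 0.0653 to 0.0817 percent of the counts in genes over the 12 libraries.

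Markers of other cell types also moved in OE. Of 2 tested muscle markers, of 5 listed, DES rose (535.4 ± 36.8 to 715.8 ± 15.7 CPM, SD, n = 3; log2 change 0.42; edgeR adjusted p = 0.0399) and ACTA1 fell (15.5 ± 1.76 to 9.69 ± 0.781 CPM; log2 change -0.68; adjusted p = 0.0208). The muscle markers summed to 318 to 327 RPKM in OE and 238 to 273 RPKM in OE_NC, a sum that was mostly DES. MYOD1 and MYOG were near 0, at means of 0.0231 and 0.0040 RPKM. In the stromal list, summed levels were 5140 to 5500 RPKM in OE and 4800 to 5740 RPKM in OE_NC. The part of these in the members' changes was not tested.

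**Figure D3:**
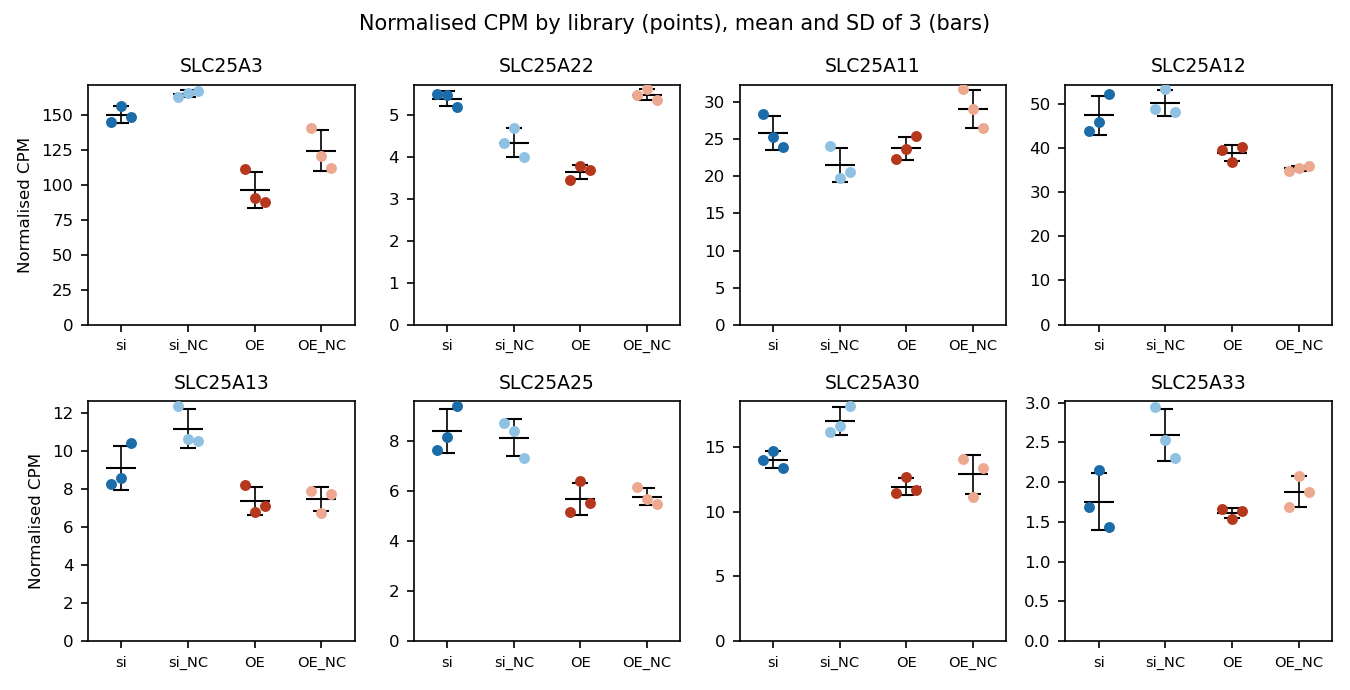
Normalised CPM of 8 SLC25 members in each library (points), with the mean and SD of 3 libraries per group (bars). SLC25A22 lies at 3.46 to 3.79 CPM in OE and 5.37 to 5.63 CPM in OE_NC, and SLC25A12 lies lower in OE and OE_NC than in si and si_NC.

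In the interference experiment no member passed the test: edgeR called 0 of 40, and DESeq2 and limma each called 0. Over all genes tested, 2.54 percent were called. At an unadjusted p under 0.05, SLC25A11 and SLC25A22 were higher in si, and 4 members lower, among them SLC25A13, SLC25A30 and SLC25A33. This count too has no share of all genes at that cut beside it. The log2 change was positive in 22 of 40 members with a median of 0.034, beside 0.025 over all genes tested. With the gene-length offset both medians turned negative, at -0.027 and -0.037, and 18 members were positive. Without si replicate 3 and si_NC replicate 2 the count was 0 as well, beside 6.68 percent of all genes tested.

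SLC25A33, which carries pyrimidine nucleotides into mitochondria, had the smallest unadjusted p. It stood at 1.69, 2.15 and 1.43 CPM in si and 2.94, 2.53 and 2.30 CPM in si_NC, so each si library lay below each control, on 52 to 94 counts per library. The log2 change was -0.56 ± 0.19 (SE; edgeR adjusted p = 0.129). SLC25A30, of the uncoupling protein branch, stood at 13.9, 14.7 and 13.4 CPM in si and 16.2, 16.6 and 18.2 CPM in si_NC, again without overlap (log2 change -0.28 ± 0.10, SE; adjusted p = 0.152). In the other direction SLC25A22 stood at 5.52, 5.50 and 5.20 CPM in si and 4.348, 4.708 and 4.004 CPM in si_NC, also without overlap (log2 change 0.31 ± 0.12, SE; adjusted p = 0.159).

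Among the most abundant members SLC25A3 stood at 145, 157 and 149 CPM in si and 163, 166 and 167 CPM in si_NC, all 3 si libraries lower (log2 change -0.14 ± 0.10, SE; edgeR adjusted p = 0.467). SLC25A6 overlapped fully, at 190.3, 180.1 and 150.6 CPM in si and 179.3, 156.3 and 178.0 CPM in si_NC (95% interval of the log2 change -0.19 to 0.23). SLC25A4, SLC25A5, SLC25A12, SLC25A15 and SLC25A1 overlapped too, with log2 changes from -0.18 to 0.073. In SLC25A1 the libraries held 19.5, 20.4 and 26.0 CPM in si and 20.2, 24.8 and 22.5 CPM in si_NC.

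The si libraries lay wholly above or below si_NC for 10 of 40 members, 4 above (SLC25A17, SLC25A22, SLC25A35, SLC25A43) and 6 below (SLC25A3, SLC25A13, SLC25A23, SLC25A30, SLC25A33, SLC25A53), beside 20.8 percent of all genes tested. The family's summed CPM overlapped, at 785.1, 796.7 and 755.4 in si and 797.5, 770.7 and 811.1 in si_NC. The si_NC libraries were the shallowest, at 28.9 to 32.2 M counts against 35.9 to 42.7 M in si. Of 8 tested stromal markers, of 10 listed, THY1 rose in si (log2 change 0.66; edgeR adjusted p = 0.0263), and the list summed to 5970 to 7180 RPKM in si against 4300 to 5580 RPKM in si_NC. The part of depth or of these markers in the members' differences was not tested.

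The change in OE and the change in si differed for 2 of 40 members, SLC25A22 and SLC25A11, by a test of the difference itself, a smaller share than the 8.41 percent of all genes tested. Both contrasts enter this difference, so it shares their libraries and adds no independent evidence for either. For SLC25A22 the change in OE was lower than that in si by 0.90 on the log2 scale (difference -0.90 ± 0.16, SE; 95% interval -1.25 to -0.55; edgeR adjusted p = 0.0056). The call was kept in each of the 12 refits without 1 library and in the 11 other settings tried, with an adjusted p of at most 0.0202.

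SLC25A11 exchanges 2-oxoglutarate for malate in the malate-aspartate shuttle (chromosome 19, 26455438 to 26458255, plus strand, 1544 exon bases). It stood at 28.4, 25.3 and 23.97 CPM in si and 24.12, 19.8 and 20.6 CPM in si_NC, which overlap, since the lowest si library lay just under the highest control. In OE it stood at 22.4, 23.7 and 25.4 CPM and in OE_NC at 31.8, 29.1 and 26.6 CPM, without overlap. Neither change passed alone (log2 changes 0.27 ± 0.10 in si and -0.29 ± 0.10 in OE, SE; edgeR adjusted p = 0.171 and 0.102), and the difference was -0.56 ± 0.14 (SE; adjusted p = 0.0280). That call was lost with the gene-length offset, at -0.34, and in 7 of 12 refits without 1 library (si replicate 1 or 2, si_NC replicate 2 or 3, OE replicate 1 or 2, or OE_NC replicate 2), where it ran from -0.65 to -0.49. The median difference over the 40 members was -0.082, beside -0.025 over all genes tested. With library totals in place of scaling factors these medians moved to -0.22 and -0.16, and with the gene-length offset they turned positive, at 0.040 and 0.060.

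More members were called between the negative controls of the 2 experiments, but not a larger share than of all genes. In OE_NC against si_NC, SLC25A11 rose and SLC25A3, SLC25A12, SLC25A13, SLC25A25 and SLC25A30 fell, 6 of 40 members, while 19.7 percent of all genes tested were called. The control agent and the experiment cannot be told apart here. With library totals 4 members were higher and 5 lower, and over all genes 2295 higher and 946 lower. With the gene-length offset 0 members were higher and 10 lower, and over all genes 1037 higher and 2757 lower. Without si replicate 3 and si_NC replicate 2, 2 members were higher and 8 lower, and 3928 genes were called in place of 3215. The median log2 change was -0.13 over the members and 0.020 over all genes tested, or -0.18 and -0.060 with the gene-length offset.

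The aspartate/glutamate carriers, which complete the malate-aspartate shuttle and bind calcium, were both lower in OE_NC. SLC25A12 (chromosome 2, 24637412 to 24736034, plus strand) stood at 34.8, 35.4 and 36.0 CPM in OE_NC and at 48.8, 53.5 and 48.3 CPM in si_NC, far apart relative to their spread (log2 change -0.50 ± 0.08, SE; edgeR adjusted p = 0.00107). SLC25A13 (chromosome 4, 13462661 to 13692228, minus strand) stood at 7.91, 6.72 and 7.74 CPM against 12.3, 10.6 and 10.5 CPM (log2 change -0.58 ± 0.12, SE; adjusted p = 0.0052). The phosphate carrier SLC25A3 stood at 140.3, 120.6 and 111.7 CPM against 163, 166 and 167 CPM (log2 change -0.41 ± 0.10, SE; adjusted p = 0.0088). These 3 calls held in each refit and setting tried.

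The remaining calls rested more on single libraries or on the gene-length trend. SLC25A25, an ATP-Mg/phosphate carrier (chromosome 11, 98712443 to 98748919, plus strand), stood at 6.16, 5.71 and 5.50 CPM in OE_NC and 8.73, 8.40 and 7.34 CPM in si_NC (log2 change -0.49 ± 0.12, SE; edgeR adjusted p = 0.0129), a call lost without si_NC replicate 1. SLC25A30 (chromosome 12, 15541390 to 15565521, plus strand) stood at 14.1, 11.1 and 13.4 CPM against 16.2, 16.6 and 18.2 CPM (log2 change -0.40 ± 0.10, SE; adjusted p = 0.0134), a call lost without si_NC replicate 3 or OE_NC replicate 2. SLC25A11, with the values given above, was higher in OE_NC without overlap (log2 change 0.44 ± 0.10, SE; adjusted p = 0.0084), a call lost with the gene-length offset, at 0.24. SLC25A22 was higher as well but missed the threshold (0.34 ± 0.12, SE; adjusted p = 0.0544).

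Of the 40 members, 3 lay wholly above (SLC25A11, SLC25A22, SLC25A39) and 11 wholly below si_NC, beside 35.8 percent of all genes tested that did not overlap. Summed CPM of the family was 728.7 ± 41.1 in OE_NC and 793.1 ± 20.5 in si_NC (SD, n = 3). Of the members that fell between the controls, SLC25A3 also fell in OE, a comparison that shares the OE_NC libraries, and SLC25A12, SLC25A13, SLC25A25 and SLC25A30 had log2 changes from -0.11 to 0.13 there that did not pass the threshold. The markers THY1, LPL and ACTA1 were higher in OE_NC (log2 changes 1.17, 0.37 and 0.76, edgeR adjusted p = 1.512e-04, 0.0188 and 0.0022). The other tested markers of their lists did not pass and went both ways. PDGFRA, PDGFRB, COL1A1, COL1A2, CIDEC and DES had log2 changes from 0.071 to 0.40. NT5E, ENG, VIM, PLIN1 and FABP4 had log2 changes from -0.46 to -0.017. Muscle markers, mostly DES, summed to 238 to 273 RPKM in OE_NC against 207 to 253 RPKM in si_NC, and the depth was 35.1 to 38.2 M against 28.9 to 32.2 M counts. Their part was not tested.

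**Figure D4:**
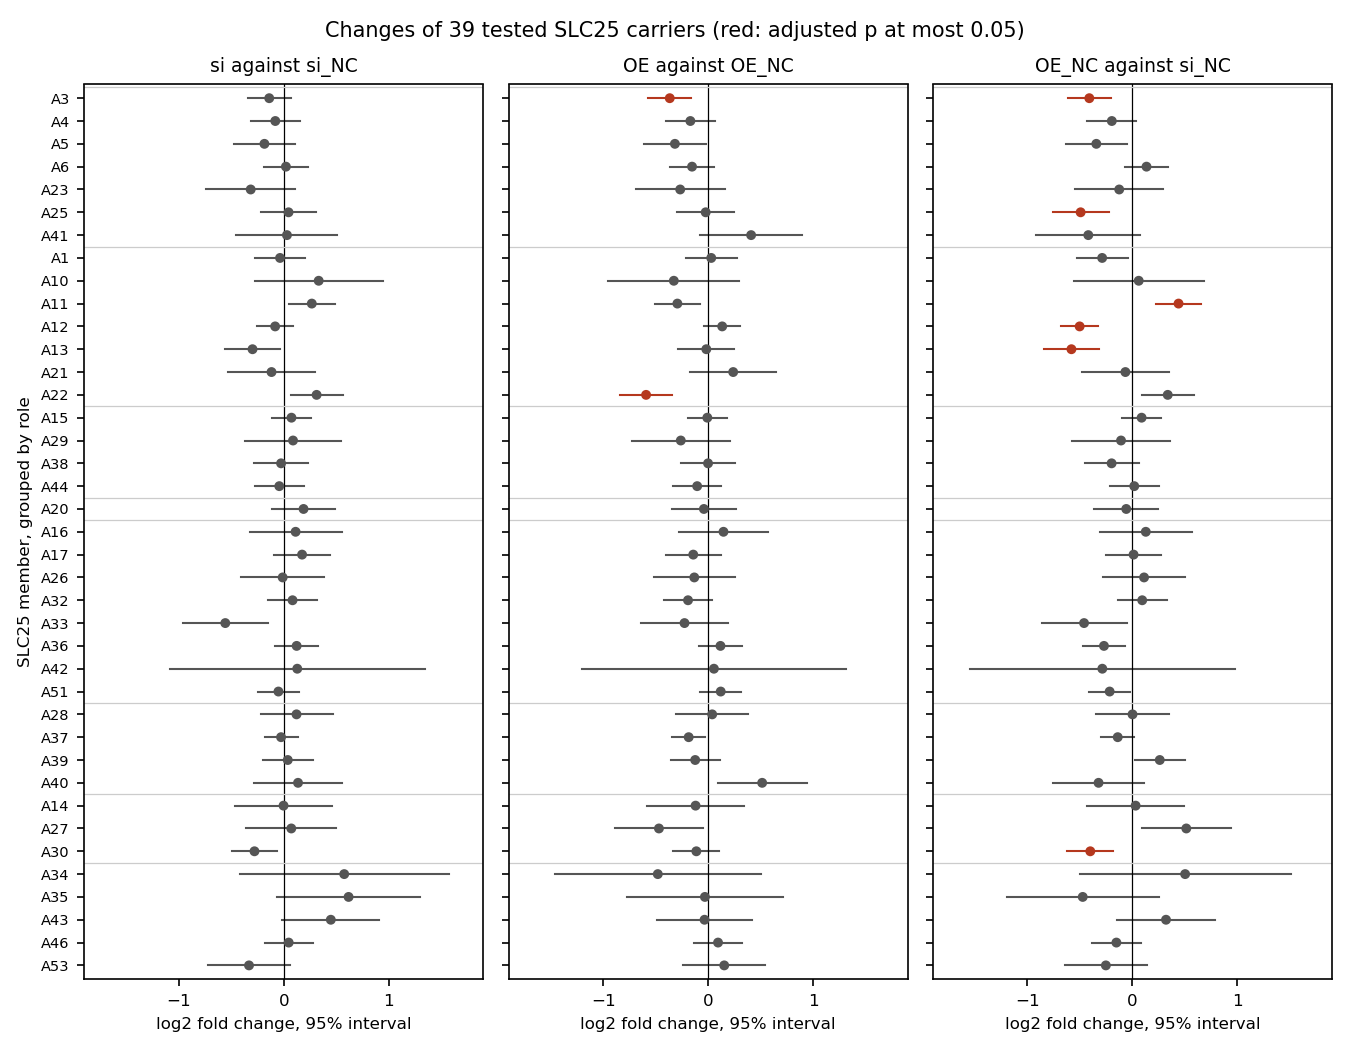
The log2 fold change (points) and its 95% interval (lines) of 39 of the 40 tested SLC25 members, grouped by role, in si against si_NC, OE against OE_NC and OE_NC against si_NC, with calls at an adjusted p of at most 0.05 in red. No member is called in si, SLC25A3 and SLC25A22 are called in OE, and 6 members are called between the controls.

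By role, the calls fell in 3 groups. Among the 7 dicarboxylate, tricarboxylate and aspartate/glutamate carriers tested, 1 was called in OE, 2 in the difference and 3 between the controls. Among 7 adenine nucleotide and phosphate carriers, 1 was called in OE and 2 between the controls, and among 3 of the uncoupling branch 1 between the controls. Over all genes tested, 4.47 percent were called in OE, 8.41 percent in the difference and 19.7 percent between the controls. No test compared the roles, and with so few members in each these counts do not show that roles differ. The remaining 23 tested members, among them the amino acid carriers SLC25A15, SLC25A38 and SLC25A44, the acylcarnitine carrier SLC25A20, the mitoferrins and the coenzyme carriers, had 0 calls by edgeR as fitted here in the 4 comparisons. Calls among these 23 were read by member only in the other edgeR settings named next, so the account is not complete. Those settings called SLC25A40 in OE and SLC25A38 between the controls (without si replicate 3 and si_NC replicate 2), SLC25A39 between the controls (library totals), and SLC25A33 and SLC25A36 between the controls (gene-length offset). At an unadjusted p under 0.05 there were 2 of the 23 in si, 3 in OE, 0 in the difference and 4 between the controls, among these SLC25A37 in OE, at a log2 change of -0.18, and SLC25A36 and SLC25A51 between the controls, at -0.27 and -0.22. These counts have no share of all genes at that cut beside them, so they do not set the 23 apart from other genes. DESeq2 called 1 of the 23, SLC25A36 between the controls, and limma 1, SLC25A39 between the controls.

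The machinery that inserts carriers into the inner membrane, the TIM22 complex with its small chaperones and the TOM receptors, was read in 13 genes. As a background for this list and those below, 2.54 percent of all genes tested were called in si and 4.47 percent in OE. The share was 8.41 percent in the difference and 19.7 percent between the controls. TIMM8B and TIMM13, small chaperones, were the most abundant at 91.0 and 61.6 RPKM, though TIMM8B shares 88 of 505 exon bases with NKAPD1 on the opposite strand. In OE 1 of 13 fell, TOMM40, the pore of the outer membrane, from 26.8 ± 5.93 to 17.7 ± 0.511 CPM (SD, n = 3; log2 change -0.60; edgeR adjusted p = 0.0399), a call lost with the gene-length offset and in 7 of 12 refits without 1 library. In si edgeR and limma called 0 of 13 and DESeq2 1 lower, with 2 lower at an unadjusted p under 0.05. That last count has no share of all genes at its cut beside it, so nothing is concluded from it. Between the controls TOMM22 rose by 0.56 and the receptor TOMM70, which recognises carriers, and TIMM8A fell by 0.57 and 0.45 on the log2 scale. The TIMM8A call was lost without si_NC replicate 1, OE_NC replicate 2 or OE_NC replicate 3.

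Other mitochondrial membrane transporters, outside the family, were read in 19 genes, with the potassium/proton exchanger LETM1 and the outer membrane channel VDAC2 highest at 68.0 and 63.9 RPKM. In si 1 of 19 fell, LETM1, from 362 ± 31.8 to 287 ± 1.94 CPM (log2 change -0.33; edgeR adjusted p = 0.0384), a call lost in 6 of 12 refits without 1 library, with library totals, with limma and with only the groups compared. In OE 1 of 19 rose and 1 fell, SMDT1, a small subunit of the calcium uniporter (17.8 ± 1.46 to 13.8 ± 0.749 CPM; log2 change -0.37; adjusted p = 0.0390). The call was lost in 8 of 12 refits without 1 library and with the gene-length offset, at -0.099. SMDT1 shares 144 of 782 exon bases with NDUFA6 on the opposite strand. Between the controls 3 of 19 rose and 4 fell, beside 19.7 percent of all genes tested that were called.

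Enzymes that supply or use carried metabolites were read in 26 genes, with cytosolic isocitrate dehydrogenase IDH1 and mitochondrial malate dehydrogenase MDH2 highest at 77.9 and 51.6 RPKM. In si 3 of 26 rose and 0 fell, beside 2.54 percent of all genes tested that were called. Citrate synthase, CS, makes the citrate that SLC25A1 exports, and stood at 33.5, 34.4 and 36.6 CPM in si and 26.3, 22.8 and 25.1 CPM in si_NC (log2 change 0.49 ± 0.08, SE; edgeR adjusted p = 0.0079), a call lost in the fit of the si and si_NC libraries alone and kept in the other alternatives tried. MTHFD2, of mitochondrial folate metabolism, rose by 0.59 (adjusted p = 0.0157), a call lost in 3 of 12 refits and in the fit of these 2 groups alone, and GPD2, of the glycerol phosphate shuttle, by 0.32 (adjusted p = 0.0398), a call lost in 10 of 12 refits and in 5 other settings, among them the gene-length offset and limma. In OE 1 of 26 fell, MDH2, from 77.7 ± 9.15 to 59.5 ± 1.52 CPM (log2 change -0.39; adjusted p = 0.0474), lost with the gene-length offset and in 9 of 12 refits. The change in OE was lower than that in si for CS and MTHFD2 (differences -0.64 and -0.60) and higher for IDH1 (0.46), calls that for CS were kept in each refit and setting tried and that for MTHFD2 and IDH1 were lost in 6 and 8 of 12 refits without 1 library. The MTHFD2 call was also lost with the gene-length offset, and the IDH1 call with library totals and with limma.

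Between the controls 4 of the 26 enzymes rose and 6 fell, beside 19.7 percent of all genes tested that were called. IDH1 fell from 263.9 ± 22.4 to 156.2 ± 12.6 CPM (log2 change -0.76), ACLY, which cleaves exported citrate for lipid synthesis, from 71.7 ± 10.9 to 39.8 ± 3.16 CPM (-0.85), and GOT1, the cytosolic aspartate aminotransferase of the malate-aspartate shuttle, from 91.1 ± 5.40 to 65.4 ± 4.99 CPM (-0.48), and these 3 calls were kept in each refit and setting tried. Of 11 regulators of mitochondrial biogenesis, led by GABPA and POLG at 12.8 and 8.62 RPKM, 3 fell between the controls (PPARGC1B, TFAM and POLG, by 0.33, 0.31 and 0.25 on the log2 scale) by edgeR, 5 by DESeq2 and 0 by limma. GABPA shares 174 exon bases with ATP5PF and POLG 425 with FANCI. In si edgeR, DESeq2 and limma called 0 of 11, with 1 higher and 2 lower at an unadjusted p under 0.05. In OE edgeR and limma called 0 and DESeq2 1 lower, with 1 lower at an unadjusted p under 0.05. The counts at that unadjusted cut have no share of all genes beside them, so nothing is concluded from them.

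Of the family genes under other symbols MTCH1, MTCH2 and UCP2 were tested. The uncoupling protein UCP2 stood at 1.41, 1.28 and 1.87 CPM in si and 0.588, 0.492 and 1.10 CPM in si_NC, without overlap, and missed the threshold (log2 change 1.05 ± 0.34, SE; edgeR adjusted p = 0.114). MTCH1 was near level across the groups, at 39.9 ± 0.799 CPM in si, 38.3 ± 1.86 in si_NC, 39.3 ± 2.75 in OE and 38.6 ± 1.33 in OE_NC (SD, n = 3). Spread between replicates was like that of other genes: the median coefficient of variation was 10.1 percent for tested members and 12.0 percent for all genes tested in si, and 10.9 and 12.9 percent in si_NC. In OE it was 7.70 and 7.96 percent and in OE_NC 10.8 and 11.6 percent.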

How the data were processed

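Counts of reads per gene and RPKM were deposited by the authors for 12 stranded polyadenylated RNA libraries. Per the submitters' processing notes, reads passed through fastp 0.23.0 and were counted by featureCounts (Subread 1.5.1). The aligner, the build, the counting strand and the handling of reads that fit several genes were not stated in what was used here. The deposited RPKM could be recomputed from the counts, exon lengths and column totals (largest relative difference 6.6e-14). Even numbers made up 66.2 to 69.3 percent of the nonzero counts, so halved counts were tried. A further 2 entries without a gene name, with 0.0868 to 0.116 percent of counts, were dropped.

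Groups came from the sample titles. In R 4.3.3, edgeR 4.0.16 was run on the counts with TMM scaling, filterByExpr (minimum count 10, minimum total 15), and the quasi-likelihood F test in 1 fit of 12 libraries (8 residual degrees of freedom), with Benjamini-Hochberg adjustment over all 16300 genes and a threshold of 0.05. CPM values are on the TMM scale. The fit was tested on simulated data. Values by library were given for called members, the 8 most abundant members and, where none was called, the 2 members of smallest p. From each pathway list called genes (up to 3 a comparison) and the 2 most abundant were named. Other members are named by level, by separation of the groups or at an unadjusted p under 0.05, after their values were seen. Counts at an unadjusted p under 0.05 are given without the share of all genes at that cut, and no conclusion is drawn from them. Members, lists and tests were chosen with earlier results of these data known. Symbols of all 45 members were found in a RefSeq gene table (ARS-UCD2.0). SLC25A18, SLC25A24 and SLC25A52 were not analysed here. Results of 1 further member and of 1 other listed gene are not reported here; both stay in all counts.

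The alternatives tried were DESeq2 (1.42.0) for size factors only or for its own Wald test, scaling by library totals, dropping the filter on low counts or asking for 5 CPM in 3 libraries, fitting only the groups compared, a replicate block, limma 3.58.1 on log2 of the deposited RPKM plus 1 or plus 0.1, halved counts, a per-library correction for exon length (natural spline, 4 degrees of freedom), and leaving out each library. A refit leaving out both si replicate 3 and si_NC replicate 2 was chosen after seeing the data.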

Additional observations from a re-analysis of the deposited data

Results flagged for a closer look

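The changes of 2 members differed between overexpression and interference by the test of the difference, with OE minus OE_NC set against si minus si_NC. For SLC25A22 the difference was -0.90 on the log2 scale (edgeR adjusted p = 0.0056), with the 3 OE libraries below the 3 OE_NC libraries and the 3 si libraries above the 3 si_NC libraries. For SLC25A11 it was -0.56 (edgeR adjusted p = 0.0280), with the OE libraries below OE_NC and the si libraries overlapping si_NC. Both values use the libraries of the separate comparisons and are no independent support for them.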

How the results depend on the processing

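Changes of single genes were followed over the settings for called members, the 2 members of smallest p in si, and up to 3 called genes per list and comparison. None of these reversed, and changes of other named genes were not followed. With the gene-length offset the members' median turned from 0.034 to -0.027 in si and from -0.082 to 0.040 in the difference, and the median of all genes turned in all 4 comparisons. The count of members called in OE, 2, was 1 with the gene-length offset and 5 without si replicate 3 and si_NC replicate 2, and leaving out each library gave 0 to 2 (0 without OE replicate 2, OE replicate 3, OE_NC replicate 1 or OE_NC replicate 2). The share of all genes tested moved too, from 4.47 percent to 3.31 percent with the offset and 13.96 percent without those 2 libraries. It was 0.114 to 8.44 percent when leaving out each library. The count for the difference, 2, was 1 with the gene-length offset and 1 to 2 when leaving out each library. Over all genes tested the share was 8.41 percent, 11.1 percent with the offset and 3.53 to 12.9 percent when leaving out each library. The count between the controls, 6, was 10 with the gene-length offset, 10 without si replicate 3 and si_NC replicate 2, 9 with library totals, and 5 to 8 when leaving out each library. The share of all genes tested, 19.7 percent, was 23.3, 23.5 and 19.9 percent in these settings and 11.3 to 23.0 percent when leaving out each library. The count in si was 0 in every setting tried, where 0.0524 to 6.71 percent of all genes tested were called. With the replicate block, the counts were 0 in si, 2 in OE, 2 for the difference and 7 between the controls. Over all genes tested the shares were 2.43, 4.93, 7.65 and 19.3 percent. The numbers were not taken to pair the libraries. To check this, deviations from the group means of log2 CPM, not the levels themselves, were correlated between same-numbered libraries. These correlations ran from -0.257 to 0.092 in si, from -0.015 to 0.045 in OE and from -0.116 to 0.189 between the controls. The difference uses all groups, so a fit of only the groups compared is the same fit. Of 880 refits of the single-gene changes followed, 734 stayed on their side of the threshold. Library totals moved the median log2 change of all genes from 0.025 to 0.10 in si, from 0.020 to 0.11 between the controls and from -0.025 to -0.16 in the difference. The split of all genes called, higher and lower, was 150 and 264 in si, 295 and 105 with library totals, and 175 and 918 with the gene-length offset. In OE it was 362 and 366, 159 and 653, and 393 and 146. Low counts limit several tested members, among them SLC25A10, SLC25A33, SLC25A34, SLC25A35 and SLC25A42, whose intervals are wide, and the 5 members that were not tested.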
